A study of Rattus norvegicus with 6 samples.

Results

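The circadian clock genes described here are Arntl, Clock, Per1, Per2, Nr1d1 and Dbp, 6 of the 26689 Ensembl gene IDs counted in rat liver RNA. They were chosen by ID (ENSRNOG00000014448, ENSRNOG00000002175, ENSRNOG00000007387, ENSRNOG00000020254, ENSRNOG00000009329 and ENSRNOG00000021027, in the order of the symbols), and all 6 were present in every library and passed the expression filter. The symbols came with the IDs. The reference table used here holds no Ensembl ID for any of the 26689 genes, so the pairs of ID and symbol could not be checked, and each symbol below stands for its ID. The question was whether the libraries differ in clock phase, which would place time of day beside the study's conditions.

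Animals received etanercept and nitroglycerin around ischemia reperfusion (treated IR), ischemia reperfusion alone (IR), or neither (control, healthy and untreated). Ischemia reperfusion was made by clamping the portal vein for a time and releasing it. The etanercept dose was 9 mg/kg, given 18 to 16 h ahead, and this drug is a soluble receptor that captures tumor necrosis factor. Nitroglycerin releases nitric oxide and ran into a vein at 6 µg/kg/min ahead of the clamping and through it. Each condition was measured in hepatocytes freshly isolated by collagenase perfusion and, from other animals, in whole liver, with RNA taken 1 day after ischemia reperfusion. RNA of 3 animals was pooled for each of the 6 libraries, so a group is 1 library, and "higher" and "lower" between 2 libraries describe those libraries only. The labels name no sham operation, strain, sex or age, and they give no clock time of surgery, sampling or hepatocyte isolation.

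The circadian clock is a feedback loop of transcription. The proteins of Arntl (also called Bmal1) and Clock pair to switch on the Per and Cry genes, Nr1d1 and Dbp through E-box sequences, and the Per and Cry proteins then block that pair. The Nr1d1 protein (Rev-erb alpha) represses Arntl through RORE sequences, and Dbp, a PAR bZIP factor, acts on D-box sequences of output genes and of Per genes. In the livers of rats and mice the transcripts peak in turn through the day, Nr1d1 and Dbp by day and the Per genes toward dusk, while Arntl runs opposite to them, and Clock itself cycles little. Per1 is also induced directly by glucocorticoids and other stress signals.

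Letters of these motifs were searched in the RefSeq promoters of the members, matched by symbol (build GRCr8, which need not be the build of the counts; from 250 bases before to 50 bases after the start, 5′ to 3′). Promoters of Arntl, Per2 and Nr1d1 are shown because they are the members with a match in this window. Capitals mark the E-box CACGTG, its variant CACGTT, the D-box TTATGTAA and the RORE core TAGGTCA, searched on both strands:
Arntl, chr1:176766078-176766377, plus strand: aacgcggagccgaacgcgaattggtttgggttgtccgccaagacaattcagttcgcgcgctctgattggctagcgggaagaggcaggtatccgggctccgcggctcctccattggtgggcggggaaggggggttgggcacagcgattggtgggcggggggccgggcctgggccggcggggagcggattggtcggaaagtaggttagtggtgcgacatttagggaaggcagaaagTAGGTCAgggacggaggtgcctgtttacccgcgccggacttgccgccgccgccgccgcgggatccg
Per2, chr9:99496944-99497243, minus strand: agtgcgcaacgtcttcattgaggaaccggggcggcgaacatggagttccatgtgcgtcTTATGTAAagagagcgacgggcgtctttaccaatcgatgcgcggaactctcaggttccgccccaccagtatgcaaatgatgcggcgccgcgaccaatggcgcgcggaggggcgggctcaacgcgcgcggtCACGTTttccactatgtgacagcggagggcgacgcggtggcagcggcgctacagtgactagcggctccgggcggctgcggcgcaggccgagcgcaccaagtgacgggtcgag
Nr1d1 (upstream start), chr10:84231763-84232062, minus strand: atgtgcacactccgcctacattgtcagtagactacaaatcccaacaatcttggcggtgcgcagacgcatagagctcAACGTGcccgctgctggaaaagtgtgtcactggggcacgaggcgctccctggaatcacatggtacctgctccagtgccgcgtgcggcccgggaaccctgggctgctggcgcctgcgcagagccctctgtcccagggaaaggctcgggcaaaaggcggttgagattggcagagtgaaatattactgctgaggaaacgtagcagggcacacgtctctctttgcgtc
Nr1d1 (downstream start), chr10:84229405-84229704, minus strand: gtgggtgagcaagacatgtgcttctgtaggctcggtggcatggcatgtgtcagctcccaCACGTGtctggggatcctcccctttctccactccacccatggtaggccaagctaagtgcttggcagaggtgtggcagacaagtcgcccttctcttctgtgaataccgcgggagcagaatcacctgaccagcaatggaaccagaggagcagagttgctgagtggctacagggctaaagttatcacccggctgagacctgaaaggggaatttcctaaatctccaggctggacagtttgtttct
The Arntl promoter held 1 RORE core, which 2.63% of the 33469 promoters of this length in the table held. Per2 held a D-box (in 0.893% of promoters) and the variant E-box CACGTT (in 4.83%). Nr1d1 held CACGTT, read on the opposite strand, at its upstream start and the E-box CACGTG (in 6.42% of promoters) at its downstream start. A match is a description of the sequence, not a shown binding site. The windows of Dbp, Per1 and Clock held none of these letters, which says nothing about matches elsewhere in those genes.

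The libraries held 2716994, 5335184 and 3448652 reads in genes in hepatocytes (treated IR, IR, control), and 6059666, 7160610 and 1945331 in whole liver in the same order. Levels are given as CPM, the reads of a gene scaled to a common library size with TMM factors, and 3 reads correspond to between 0.40 and 1.39 CPM. The members were of low to moderate abundance, with 7 to 436 reads per library. Intervals given below are 95% intervals for counting error alone and hold no variation between animals. Reads were counted with a strand setting that is not given in the sources used here, and in RefSeq the Nr1d1 gene overlaps Thra, Clock overlaps 2 long noncoding RNA genes and Per2 overlaps 1, so their reads could be shared with or lost to those genes.

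The largest spread was in Dbp, the output factor. In hepatocytes Dbp stood at 33.4 CPM in treated IR (72 reads), 8.31 CPM in IR (43 reads) and 6.83 CPM in control (22 reads). In whole liver it stood at 30.2 CPM in treated IR (226 reads), 35.3 CPM in IR (238 reads) and 6.55 CPM in control (15 reads). Both treated libraries and the IR liver library were high, while both control libraries and the IR hepatocyte library were low, and the counting intervals of the high libraries (lowest bound 26.2 CPM) lay above those of the low ones (highest bound 11.2 CPM). From bulk RNA, a lower share of cells that express a gene and less of its RNA per cell cannot be told apart.

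Between libraries of one preparation, a gene was called apart when its levels differed by 2-fold or more and the counting interval left out equality. Dbp was 4.90-fold higher in treated IR than in control hepatocytes (interval 3.00 to 8.29), and 4.61-fold higher in treated IR than in control liver (2.74 to 8.37). These 2 ratios share no library. Counted from the highest ratio, they ranked 138 of 9784 genes in hepatocytes and 136 of 9932 in liver. In liver, Dbp was also 5.39-fold higher in IR than in control (3.20 to 9.78, rank 97 of 9932), whereas in hepatocytes the ratio of IR to control was 1.22 (0.712 to 2.14). Treated IR over IR gave a ratio of 4.02 in hepatocytes (2.72 to 6.01) and of 0.855 in liver (0.71 to 1.03).

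**Figure D1:**
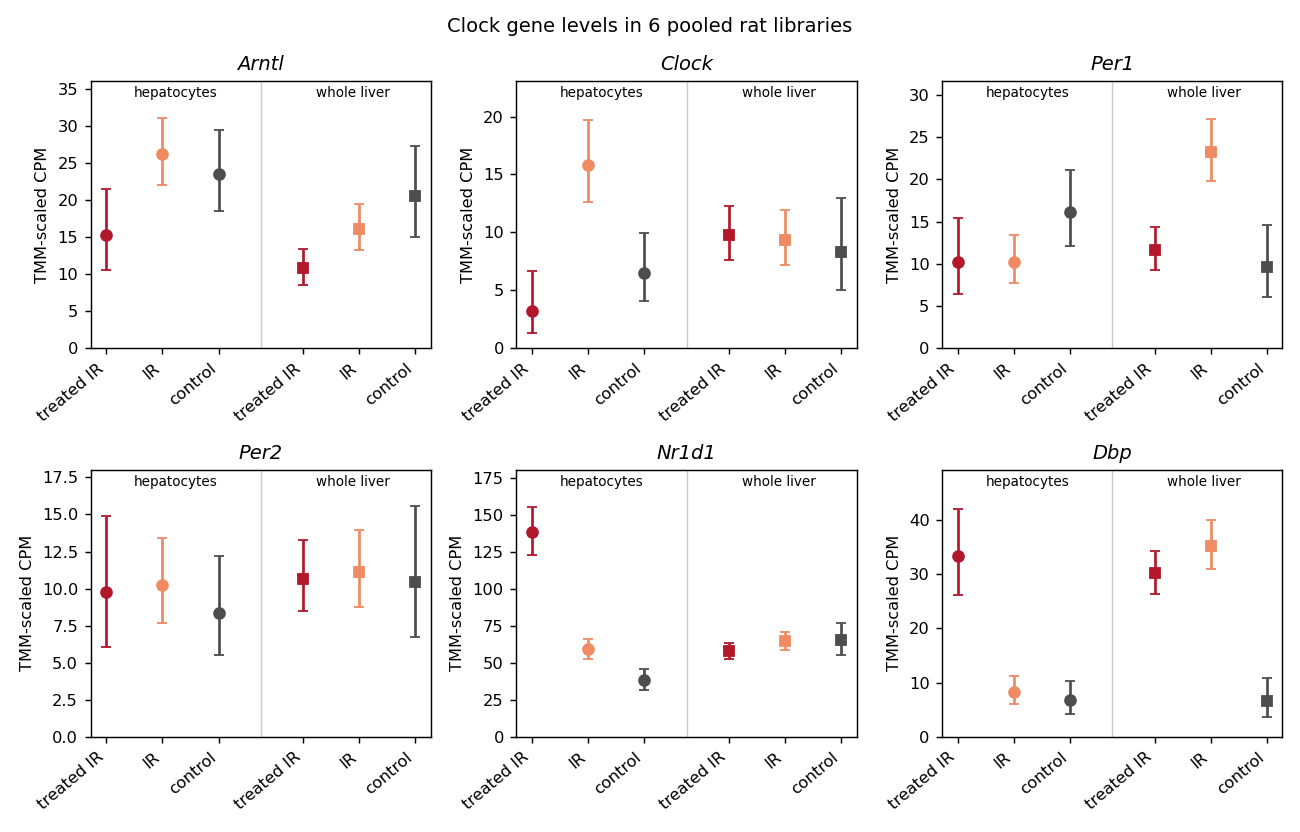
Level of each clock gene (vertical axis, TMM-scaled CPM from 0) in the 6 pooled libraries, hepatocytes on the left of each panel and whole liver on the right; points are single libraries and bars 95% counting intervals. Dbp lies at 30.2 to 35.3 CPM in 3 libraries and at 6.55 to 8.31 CPM in the other 3, while Per2 lies between 8.38 and 11.1 CPM in all 6.

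Arntl, the activator that runs opposite to Dbp in rodent liver, was at 15.3 CPM in treated IR, 26.3 CPM in IR and 23.6 CPM in control hepatocytes. Whole liver had 10.8 CPM in treated IR, 16.2 CPM in IR and 20.5 CPM in control. The 3 libraries highest in Dbp were the 3 lowest in Arntl. IR over control gave an Arntl ratio of 0.787 in liver (0.554 to 1.13) and 1.11 in hepatocytes (0.836 to 1.496). Both intervals included equality, so IR liver was not below control liver in Arntl beyond counting error. No pair passed the 2-fold rule for Arntl, but it was lower in treated IR than in control by a ratio of 0.649 in hepatocytes (0.418 to 0.989) and of 0.527 in liver (0.364 to 0.772). Treated IR over IR gave 0.583 in hepatocytes (0.386 to 0.857) and 0.669 in liver (0.496 to 0.901). Counted from the highest ratio, Arntl in treated IR over control ranked 8013 of 9784 genes in hepatocytes and 9545 of 9932 in liver. In treated IR over IR it ranked 7563 of 9865 and 9423 of 9932. The hepatocyte decreases were thus not extreme among genes, with 18.1% and 23.3% of genes at a smaller ratio. The hepatocyte ratio of treated IR to IR passed the rule with library totals alone (log2 ratio -1.07) and with libraries thinned to 1945331 reads (-1.03).

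Clock, the partner of Arntl, was even across the liver libraries and spread in hepatocytes. Its liver levels were 9.74 CPM in treated IR, 9.34 CPM in IR and 8.29 CPM in control. Hepatocytes had 3.25 CPM in treated IR (7 reads), 15.9 CPM in IR (82 reads) and 6.52 CPM in control (21 reads). The IR hepatocyte library was the high one, 2.43-fold above control (1.49 to 4.14), and treated IR was lower than IR with a ratio of 0.205 (0.0799 to 0.442). Only 7 reads stand behind the lowest value.

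Per1, a repressor of the loop, was highest in the IR liver library. Liver had 11.6 CPM in treated IR, 23.3 CPM in IR and 9.60 CPM in control, and hepatocytes had 10.2 CPM in treated IR, 10.2 CPM in IR and 16.1 CPM in control. Per1 was 2.42-fold higher in IR than in control liver (1.55 to 3.98), and treated IR over IR in liver was 0.499 (0.38 to 0.653). With library totals alone neither liver ratio passed 2-fold, at log2 ratios of 0.95 and -0.61, and with a minimum count of 50 the second was at -0.97. In hepatocytes the ratio of IR to control was 0.635 (0.425 to 0.949), which did not pass the rule, and its log2 ratio was -0.17 with libraries thinned to 1945331 reads, in place of -0.66.

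Per2, the other repressor measured, had similar levels in all libraries, on 21 to 80 reads each. Hepatocytes had 9.75 CPM in treated IR, 10.2 CPM in IR and 8.38 CPM in control, and liver had 10.7 CPM in treated IR, 11.1 CPM in IR and 10.5 CPM in control. The intervals of all 6 overlapped. The highest library was 1.33-fold above the lowest, a spread smaller than that of most genes: 3.84% of the 9932 genes, and 3.35% of the 2390 genes within 1.5-fold of its mean level, had a smaller one. The same measure was 5.39-fold in Dbp, with 86.6% of all genes and 96.5% of 2112 genes of like level below it. It was 4.88-fold in Clock (85.5% of all genes below it), 3.62-fold in Nr1d1 (79.1%), 2.43-fold in Arntl (59.6%) and 2.42-fold in Per1 (59.3%), with a median of 2.17-fold over all genes.

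Nr1d1, the repressor of Arntl, was the member with the most reads. Its levels were 138 CPM in treated IR (298 reads), 59.2 CPM in IR (306 reads) and 38.2 CPM in control hepatocytes (123 reads). Liver had 57.9 CPM in treated IR (434 reads), 64.6 CPM in IR (436 reads) and 65.5 CPM in control (150 reads). The treated IR hepatocyte library stood apart from the other 5. There Nr1d1 was 3.62-fold higher than in control hepatocytes (2.93 to 4.51) and 2.34-fold higher than in IR hepatocytes (1.99 to 2.75), the second of these not past 2-fold with library totals alone (log2 ratio 0.93). In liver the ratio of treated IR to control was 0.885 (0.733 to 1.07) and that of IR to control 0.987 (0.818 to 1.20), so that Dbp and Nr1d1 were both high in treated IR hepatocytes, while in liver Dbp differed and Nr1d1 did not pass the rule.

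**Figure D2:**
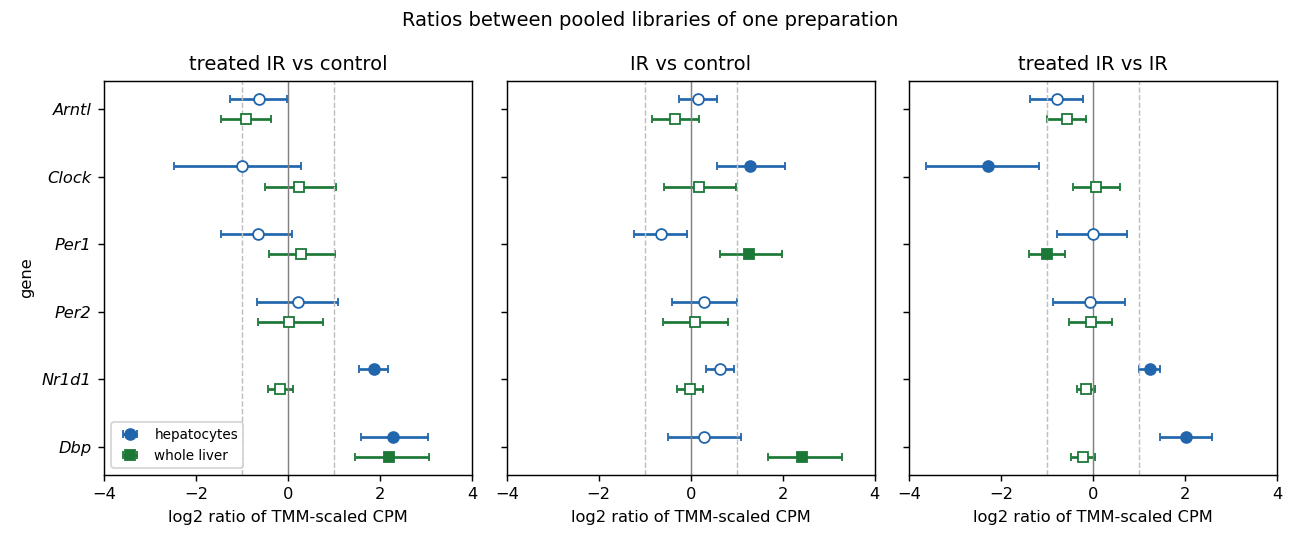
Log2 ratio of scaled levels (horizontal axis) for each clock gene (vertical axis) between 2 libraries of one preparation, with 95% counting intervals; circles are hepatocytes, squares whole liver, filled symbols passed the rule of 2-fold with an interval excluding equality, and dashed lines mark 2-fold. In treated IR vs control Dbp is to the right in both preparations (log2 ratios 2.29 and 2.20), and in IR vs control in liver alone (0.28 in hepatocytes and 2.43 in liver).

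In hepatocytes, 2 of the 6 members were higher in treated IR than in control (Dbp and Nr1d1) and 0 lower, where 8.32% of all genes were apart (4.23% higher, 4.09% lower). For IR vs control 1 was higher (Clock), where 16.5% of all genes were apart (9.53% higher, 6.93% lower). For treated IR vs IR 2 were higher (Dbp, Nr1d1) and 1 lower (Clock), where 23.3% of all genes were apart (11.2% higher, 12.1% lower). In liver, 1 member was higher in treated IR than in control (Dbp), against 7.20% of all genes apart (4.81% higher, 2.39% lower), and 2 were higher in IR than in control (Dbp, Per1), against 5.98% (3.76% higher, 2.23% lower). For treated IR vs IR in liver 1 was lower (Per1), against 2.77% (1.82% higher, 0.946% lower). The median log2 ratio of the 6 members stayed close to 0 in these comparisons, from -0.20 to 0.29, beside -0.06 to 0.06 over all genes. Since the members peak at different times of day, this median cannot show whether phase differs. Comparisons within a preparation share libraries, so these counts are not independent.

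A ratio of 2 clock genes within a library does not depend on how libraries are scaled. Dbp gave 2.18 reads per Arntl read in treated IR (interval 1.43 to 3.40), 0.316 in IR (0.219 to 0.448) and 0.289 in control hepatocytes (0.171 to 0.470). In liver it gave 2.79 in treated IR (2.16 to 3.64), 2.18 in IR (1.73 to 2.76) and 0.319 in control (0.166 to 0.581). The 3 high and the 3 low libraries did not overlap in their counting intervals, and the 3 low ones lay close together although they came from 2 preparations and 2 conditions. The ratio uses the same Dbp reads as the levels above, so this split is no separate evidence. Which gene sets the ratio was not tested. The ratio was 7.54-fold higher in treated IR than in control hepatocytes (exact conditional interval 3.85 to 14.9), and 8.74-fold higher in treated IR than in control liver (4.48 to 17.7). IR over control was 1.09-fold in hepatocytes (0.588 to 2.07) and 6.84-fold in liver (3.56 to 13.7).

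Nr1d1 reads per Arntl read were ordered differently. They numbered 9.03 in treated IR, 2.25 in IR and 1.62 in control hepatocytes, and 5.36 in treated IR, 4 in IR and 3.19 in control liver. In both preparations the order was treated IR, IR, control, with a fold of treated IR over control of 5.58 in hepatocytes (3.45 to 9.12) and 1.68 in liver (1.09 to 2.56). Treated IR over IR was 4.01-fold in hepatocytes (2.62 to 6.26) and 1.34-fold in liver (0.964 to 1.86), the liver interval including equality. IR over control was 1.39-fold in hepatocytes (0.963 to 2.0005) and 1.25-fold in liver (0.829 to 1.88), both with intervals that include equality. Control hepatocytes and control liver, both low in Dbp, differed in Nr1d1 per Arntl read beyond counting error, with a fold of 0.507 (0.32 to 0.801, hepatocytes over liver). With Clock in place of Arntl that fold was 0.742 (0.36 to 1.52), an interval that includes equality. Per Clock read the liver order was reversed, at 5.95 Nr1d1 reads in treated IR, 6.92 in IR and 7.89 in control. The folds between these liver libraries all had intervals including equality.

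Within each preparation Per2 reads per Arntl read were highest in treated IR, at 0.636 in treated IR, 0.39 in IR and 0.355 in control hepatocytes, and 0.988 in treated IR, 0.688 in IR and 0.511 in control liver. Treated IR over control was 1.79-fold in hepatocytes (0.832 to 3.82), with an interval including equality, and 1.93-fold in liver (1.04 to 3.63). Over all libraries the highest level was 1.33-fold above the lowest for Per2 and 2.43-fold for Arntl, and which gene sets the ratio was not tested. For Per1 the ratio was 0.667 in treated IR, 0.39 in IR and 0.684 in control hepatocytes, and 1.07 in treated IR, 1.44 in IR and 0.468 in control liver. IR over control was 0.57-fold for Per1 in hepatocytes (0.345 to 0.942) and 3.08-fold in liver (1.70 to 5.67), in opposite directions.

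With Clock in place of Arntl in the denominator, the Nr1d1 and Per2 ratios of treated IR to control in liver changed sign, at log2 folds of -0.41 and -0.20, while the Dbp ratio stayed higher (log2 fold 1.97). The Per1 ratio of treated IR to control in liver was 2.29-fold with Arntl (1.23 to 4.36) and 1.03-fold with Clock (0.485 to 2.17). In IR over control hepatocytes the Per1 fold was 0.261 with Clock (0.134 to 0.501). Clock itself was 2.43-fold higher in that comparison, where the Per1 level had a ratio of 0.635. Which gene sets the fold was not tested. The libraries differed in the balance of Dbp to Arntl, but the 6 genes did not divide them in one way: the IR and control livers differed in Dbp and Per1, while Nr1d1, Per2, Arntl and Clock were not called. No clock time is given for any library, so time of day, condition and preparation cannot be told apart, and a phase was not assigned.

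**Figure D3:**
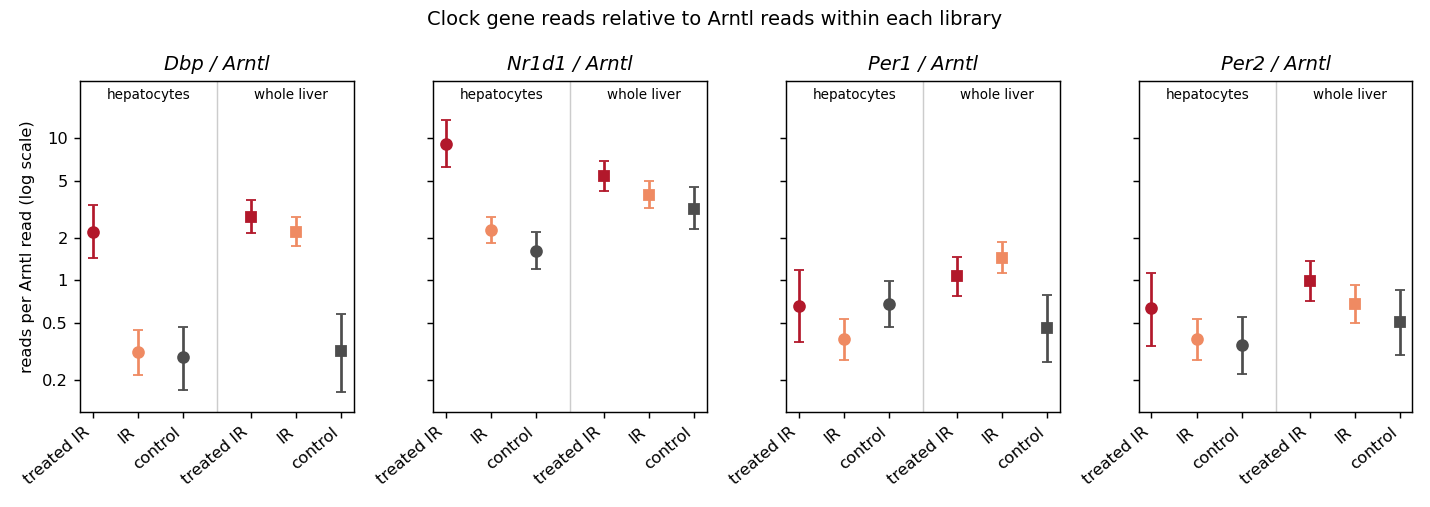
Reads of Dbp, Nr1d1, Per1 and Per2 per Arntl read (vertical axis, log scale) in each of the 6 pooled libraries, hepatocytes on the left of each panel and whole liver on the right; bars are 95% counting intervals. Dbp per Arntl is 2.18 to 2.79 in treated IR of both preparations and IR liver, and 0.289 to 0.319 in the other 3 libraries.

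Differences common to hepatocytes and liver were tested across all genes by the quasi-likelihood test of edgeR. The model held condition and preparation, leaving 2 residual degrees of freedom over the 6 libraries, and p-values were adjusted over all 9932 genes. For treated IR vs control Dbp had a log2 change of 2.22 (SE 0.52), higher in 2 of 2 preparations, and the 3rd smallest unadjusted p of all genes (0.000732), but its adjusted p was 0.9998 by edgeR, 0.912 by DESeq2 and 0.9999 by limma-voom. Arntl had a log2 change of -0.77 (SE 0.35, edgeR adjusted p = 0.9998), lower in 2 of 2 preparations. Of all genes 0% were called in this comparison, and 230 had an unadjusted p under 0.05 by edgeR, 101 by DESeq2 and 225 by limma-voom, 2 of the members by edgeR among them (Dbp and Arntl). No expression filter gave 14 of 16548 genes called by edgeR, Dbp among them (adjusted p = 0.000481). A minimum count of 50 gave 0 of 5902, with an edgeR adjusted p of 0.999 for Dbp. With 1 library left out, the log2 change of Dbp was 2.24 without IR liver and 2.21 without IR hepatocytes. It was 2.81 without treated IR liver and 1.48 without treated IR hepatocytes, and 1.79 without control liver and 2.79 without control hepatocytes. Each of these fits has 1 residual degree of freedom. Each also leaves 1 library in a condition, assumed to vary like the other groups, so their p-values are not given.

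For IR vs control Dbp had a log2 change of 1.51 (SE 0.52, edgeR adjusted p = 0.996), from 2.43 in liver and 0.28 in hepatocytes. Here 0% of genes were called, with 332 at an unadjusted p under 0.05 by edgeR, 119 by DESeq2 and 300 by limma-voom. Without the IR hepatocyte library, when the 1 IR library was liver, the log2 change of Dbp was 2.43, as between the liver libraries. Without the IR liver library it was 0.26. For treated IR vs IR the member with the smallest p was Arntl, with a log2 change of -0.68 (SE 0.34, edgeR adjusted p = 0.981), lower in 2 of 2 preparations. Again 0% of genes were called by edgeR, with 297 at an unadjusted p under 0.05, against 1 gene called by DESeq2 (175) and 0 by limma-voom (299). Without the IR liver library, when the 1 IR library was hepatocytes, the log2 changes were 1.98 for Dbp and -1.78 for Clock. Without the IR hepatocyte library they were -0.22 for Dbp and -0.12 for Clock.

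Hepatocytes were compared with whole liver over the 3 conditions. By edgeR 5.34% of genes were called, and 0 of the 6 members. Arntl averaged 21.7 ± 5.72 CPM in hepatocytes and 15.8 ± 4.86 CPM in liver (SD over conditions, n = 3 each), a log2 change of 0.48 (SE 0.28, edgeR adjusted p = 0.736), higher in 3 of 3 conditions. Dbp averaged 16.2 ± 14.9 CPM in hepatocytes and 24.0 ± 15.3 CPM in liver (SD, n = 3 each), with a log2 change of -0.68 (SE 0.41, edgeR adjusted p = 0.773). It was lower in hepatocytes in 1 of 3 conditions, with ratios of 0.236 in IR, 1.04 in control and 1.11 in treated IR. The other 4 members had adjusted p-values of at least 0.967 by edgeR.

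Within a single condition the preparations differed in some members. In control animals 0 of 6 members were apart between hepatocytes and liver, where 11.1% of genes were apart (3.87% higher, 7.22% lower), and Dbp had a ratio of 1.04 (0.517 to 2.16). Nr1d1 had a ratio of 0.583 (0.456 to 0.745), short of 2-fold, and was called lower in control hepatocytes with library totals alone (log2 ratio -1.11). In IR animals 2 were lower in hepatocytes, where 17.4% of genes were apart (5.90% higher, 11.5% lower): Dbp with a ratio of 0.236 (0.166 to 0.327) and Per1 with 0.44 (0.316 to 0.605). With libraries thinned to 1945331 reads Per1 did not pass 2-fold (log2 ratio -0.997), and Clock was called higher in IR hepatocytes (1.17). In treated animals 1 was higher and 1 lower in hepatocytes, where 19.7% of genes were apart (6.88% higher, 12.8% lower): Nr1d1 with a ratio of 2.39 (2.05 to 2.77), not past 2-fold with library totals alone (log2 ratio 0.61), and Clock with 0.334 (0.13 to 0.723). IR hepatocytes and IR liver came from different animals, and what sets their Dbp levels apart was not tested.

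Likeness to other genes was measured by Pearson r of log2 CPM over the 6 libraries, among 3657 genes with a mean of at least 20 CPM, as a description over libraries that share preparation and condition. Dbp had 7 genes with r of at least 0.9 (highest 0.93), Nr1d1 26 (highest 0.97) and Arntl 33 (highest 0.98). Over these genes the median number of such partners was 64, with quartiles of 30 and 117. The closest genes carry Ensembl IDs with no symbol in the sources used here and are not named.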

How the data were processed

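Messenger RNA pooled from 3 animals per group was sequenced with an Ion Torrent Proton, per the labels' protocols. The values used are the deposited counts of reads for each Ensembl gene, not normalized. Tools listed by the submitters' processing notes are HTSeq 0.6.1 and TopHat2 2.0.13. Which build, annotation and strand option they used is not given in the sources used here. Summary lines that name no gene were left out. They hold 6.23% to 8.34% of uniquely aligned reads as outside genes and 0.358% to 0.798% as ambiguous.

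Groups came from sample titles. Genes were filtered with filterByExpr (minimum count 10, by condition), leaving 9932, and scaled by TMM. Pair ratios carry 95% Clopper-Pearson counting intervals, levels exact Poisson ones, and within-library folds exact conditional ones. No p was computed for a pair. A minimum of 3 reads was taken as the limit for a count of 0. Tests across preparations used an additive edgeR model with Benjamini-Hochberg adjustment at 0.05, and their SE is the log2 change over the root of F. The model was also run on simulated counts with a common dispersion and condition changes equal in both preparations. That run does not show how the tests perform on these data. With no replicate pool, p-values rest on how far the condition differences disagree between hepatocytes and liver. The mean difference of the preparations is fitted and is not part of that spread. The common biological coefficient of variation was 0.288. Computation used DESeq2 1.42.0, limma 3.58.1 and edgeR 4.0.16 in R 4.3.3.

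Members, lists and tests were chosen with earlier results of these data known. The named genes are the 6 members, genes of 10 further lists and the closest genes by r. The lists, given by symbol (other clock genes, output genes, glucocorticoid and immediate early genes, hepatocyte and nonparenchymal markers), are not analysed here because 0 of 26689 IDs matched, so the labelled tissue was not checked against markers.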

Additional observations from a re-analysis of the deposited data

Results flagged for a closer look

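For IR vs control the Per1 ratio lay below equality in hepatocytes and above it in liver, with both counting intervals leaving out equality. Only the liver ratio passed the 2-fold rule. Its ratio was 0.635 in hepatocytes and 2.42 in liver, and the log2 ratios differed by -1.93 (hepatocytes minus liver). With libraries thinned to 1945331 reads the hepatocyte log2 ratio was -0.17 in place of -0.66, and with library totals alone the liver log2 ratio was 0.95, short of 2-fold. Whether the preparations differ was not tested, since each ratio rests on 1 library per group.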

How the results depend on the processing

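Of 324 recomputed member ratios between libraries, 306 stayed on their side of the 2-fold rule, 14 lost the call and 4 gained it. Of the 306, 19 changed sign, 10 with library totals alone and 7 with thinning, and 0 of these were ratios called in either setting. With library totals alone the median log2 ratio of all genes shifted to values from -0.64 to 0.39, and the number of members apart became 1 for IR vs control in liver, 0 for treated IR vs IR in liver, 1 in control (Nr1d1, lower in hepatocytes) and 1 in treated animals between preparations. A minimum count of 50 gave 0 for treated IR vs IR in liver. A 4-fold rule, stricter by construction, gave 1 for treated IR vs control and 0 for IR vs control in hepatocytes. In liver it gave 1 for IR vs control and 0 for treated IR vs IR. Between preparations it gave 1 in IR and 0 in treated animals. DESeq2 size factors and no filter changed no member's call in these ratios between libraries.

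With Clock as denominator, where treated IR hepatocytes have 7 reads, the log2 fold of the Dbp ratio in hepatocytes was 4.29 for treated IR vs IR and -0.998 for IR vs control. In liver it was 1.97 for treated IR vs control and -0.29 for treated IR vs IR, and in treated animals 1.73 for hepatocytes over liver. Of 36 folds, 4 of the 17 whose interval left out equality with Arntl no longer did so with Clock, and 6 others did so with Clock alone. The 4 were Nr1d1, Per2 and Per1 for treated IR vs control in liver, with log2 folds of -0.41 and -0.20 (both of changed sign) and 0.04, and Nr1d1 between control preparations (-0.43). The 6 were treated IR vs IR in hepatocytes for Per1 (2.28) and Per2 (2.21), the same in liver for Per1 (-1.06), and treated hepatocytes over liver for Dbp, Per1 (1.40) and Per2 (1.45). The cause was not tested.

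Counts of genes called by edgeR across preparations, 0 for each condition comparison, were 3 for IR vs control, 31 for treated IR vs IR and 14 for treated IR vs control with no filter. DESeq2 called 1 for treated IR vs IR. Leaving out 1 library gave 3 to 402 for IR vs control, 0 to 659 for treated IR vs IR, 0 to 37 for treated IR vs control and 390 to 755 for hepatocytes vs liver. Such fits tested 9834 to 10930 genes, have 1 residual degree of freedom and leave 1 library in a condition, assumed to vary like the other groups. Their counts show dependence on single libraries and are not read as condition differences. For IR vs control and treated IR vs IR they were highest without the IR liver library, and the reason was not tested. The lowest counts came without control hepatocytes for treated IR vs IR and without control liver for treated IR vs control. A minimum count of 50, with fewer genes tested, gave 158 in place of 530 for hepatocytes vs liver. A prior count of 0.5 left 7, 26 and 33 genes alike to Dbp, Nr1d1 and Arntl.

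No paired analysis was possible because each group is 1 pooled library and the labels give no replicate numbers. Depth limits Clock most, at 7 reads in treated IR hepatocytes, and Dbp at 15 reads in control liver.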
